A study of Mus musculus with 4 samples.

Results

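The genes described here were the mouse receptors for the constant (Fc) part of antibodies and the signalling chain that several of them share. They are the activating IgG receptors Fcgr1, Fcgr3 and Fcgr4, the inhibitory IgG receptor Fcgr2b, the common gamma chain Fcer1g, the neonatal receptor Fcgrt, and the IgE receptors Fcer1a and Fcer2a. They were chosen by name. All 8 were on the array, out of 18194 genes, and were covered by 14 of its 45101 probe sets. Where a gene had several probe sets, it was read by the one with the highest mean, and the others are given beside it.

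There were 2 arrays of cells treated with SAHA and 2 of cells treated with diluent (control). Both groups were dendritic cells of C57BL/6 mice, grown from the marrow of at least 3 animals per experiment in GM-CSF and IL-4 at 10 ng/ml each for 7 days and then selected for CD11c to a stated purity of 95%. SAHA (vorinostat), an inhibitor of histone deacetylases, was given for 12 hours at a dose the labels write as 500 nm. The labels call the arrays biological replicates. The marrow was pooled, and the labels do not say whether each array had a pool of its own. The spread between arrays may therefore be partly technical. Values are log2 signals, on which a difference of 1 is a doubling, and with 2 arrays per group the precision of every value is limited.

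Fc receptors connect antibodies to myeloid cells. The activating receptors bind IgG with their own chain and signal through the paired gamma chain, whose cytoplasmic motif, the ITAM, recruits the kinase Syk once SRC-family kinases have phosphorylated it. FcγRIIB carries an inhibitory motif, the ITIM, that recruits the phosphatase SHIP1 (Inpp5d), and on dendritic cells the balance between the opposing kinds of receptor is known to set the response to immune complexes. FcRn, the product of Fcgrt, works inside endosomes, where it spares IgG from lysosomal breakdown and directs immune complexes towards antigen presentation.

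Signals of the labelled cell type were present. The CD11c gene Itgax had values of 13.16 and 12.46 in SAHA-treated cells, against 13.40 and 12.44 in control, and the class II genes Cd74 and H2-Ab1 lay above 13 on all 4 arrays. Transcripts of macrophages were also abundant, with the CSF1 receptor gene Csf1r at 13.87 and 13.82 in SAHA-treated cells, against 13.96 and 13.81 in control, as is known of cultures grown in GM-CSF. Cd209a, a dendritic cell lectin, was low at 4.55 and 4.47 with SAHA and 4.57 and 4.68 in control. None of the 8 dendritic and none of the 6 measured macrophage markers passed the test for a change. The macrophage gene Mertk came nearest, with a log2 change of -0.92 (Benjamini-Hochberg adjusted p = 0.0509, limma). Both SAHA arrays lay below both control arrays in 4 of the 8 dendritic and 4 of the 6 macrophage markers, and above in none. Of all genes 29.6% lay below in this way.

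No Fc receptor gene passed the threshold for a difference between SAHA-treated and control cells (limma over all 18194 genes, Benjamini-Hochberg adjusted p under 0.05). In that test 2.23% of all genes passed, 1.52% higher and 0.709% lower with SAHA. At an unadjusted p under 0.05 there were 2 of the 8, Fcgrt and Fcgr3, where 18.1% of all genes lay under that value. In 4 of the 8 the SAHA and control arrays did not overlap, 2 with SAHA above (Fcgrt and Fcgr2b) and 2 with SAHA below (Fcgr3 and Fcer1g). The background was 50.7% of all genes without overlap, 21.1% with SAHA above and 29.6% with SAHA below, so the share among the receptors was close to that of the array. Their median log2 change was -0.06, beside -0.05 for all genes. Taken singly, none of the 14 probe sets passed in a fit over all probe sets (0.534% of all did), and in 6 of the 14 the groups did not overlap (47.1% of all).

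**Figure D1:**
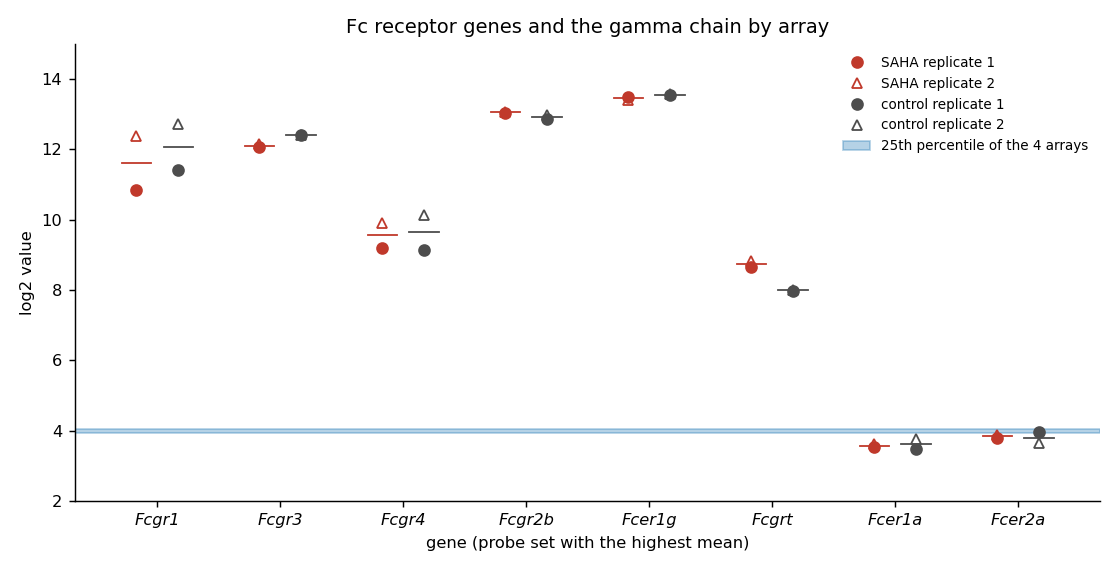
Log2 values of the 8 genes on each array, SAHA in red left of control in grey, with replicate 1 as filled circles, replicate 2 as open triangles and a bar at each group's mean. The shaded band spans the 25th percentiles of the 4 arrays. Every value of Fcer1a and Fcer2a lies under the percentile of its own array, and Fcer2a in control replicate 1 (3.96) lies within the band. Heights of different genes come from different probes and are not comparable.

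The upstream sequences of the 4 IgG receptor genes are shown because the comparison turns on the activating against the inhibitory kind. Each is the RefSeq stretch of 250 bases before the annotated start, 5′ to 3′ on the gene's strand in GRCm38.p6. Capitals mark GAGGAA or its complement TTCCTC, a short motif of ETS-family factors that includes sites of PU.1, the myeloid factor encoded by Spi1. Fcgr1 is at chr3:96293970-96294219 on the minus strand, Fcgr3 at chr1:171059404-171059653 on the minus strand, Fcgr4 at chr1:171018676-171018925 on the plus strand and Fcgr2b at chr1:170976072-170976321 on the minus strand.
Fcgr1: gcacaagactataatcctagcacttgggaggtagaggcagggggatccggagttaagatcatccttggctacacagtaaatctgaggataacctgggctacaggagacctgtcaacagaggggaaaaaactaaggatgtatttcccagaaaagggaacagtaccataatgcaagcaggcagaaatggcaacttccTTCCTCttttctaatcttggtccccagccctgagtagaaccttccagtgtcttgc
Fcgr3: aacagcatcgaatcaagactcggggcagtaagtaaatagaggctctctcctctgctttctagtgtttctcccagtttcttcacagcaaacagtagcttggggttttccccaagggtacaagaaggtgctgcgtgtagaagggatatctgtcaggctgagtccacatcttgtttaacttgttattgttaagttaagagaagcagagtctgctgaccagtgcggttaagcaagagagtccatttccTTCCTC
Fcgr4: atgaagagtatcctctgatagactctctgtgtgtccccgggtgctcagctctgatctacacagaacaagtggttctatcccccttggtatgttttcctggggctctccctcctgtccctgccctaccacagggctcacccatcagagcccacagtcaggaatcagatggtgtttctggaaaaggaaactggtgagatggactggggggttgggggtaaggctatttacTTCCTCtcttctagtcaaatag
Fcgr2b: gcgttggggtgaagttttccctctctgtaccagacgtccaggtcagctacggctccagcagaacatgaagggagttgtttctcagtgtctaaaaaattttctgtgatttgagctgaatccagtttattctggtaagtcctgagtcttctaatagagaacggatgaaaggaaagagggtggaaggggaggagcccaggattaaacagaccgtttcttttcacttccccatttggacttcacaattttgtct
Each activating gene held the motif once, beginning 55 bases before the start in Fcgr1, 6 in Fcgr3 and 22 in Fcgr4, always as TTCCTC. Of the other genes Fcer1a held it, 216 bases before the start, and the windows of Fcgr2b, Fcer1g, Fcgrt and Fcer2a did not. Searched on both strands, the motif occurred in 23.1% of 27025 RefSeq windows of the same length. The related letters AGGAAG, which can overlap it by 5 bases, occurred in 29.2% of windows, among them those of 5 of the 8 genes, Fcgr1, Fcgr3, Fcgr4, Fcer1g and Fcer2a. TTCNNNGAA, the letters to which STAT factors bind, occurred in 7.18% of windows and, among the 8 genes, in Fcgr1 alone. These are matches of letters and not measured binding sites.

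Of the activating receptor genes, Fcgr3 was the one whose groups did not overlap. It encodes FcγRIII, a receptor of low affinity that binds immune complexes. Its values were 12.06 and 12.14 in SAHA-treated cells, against 12.40 and 12.40 in control cells. Both SAHA arrays lay below both control arrays, and the control arrays almost coincided. The log2 change was -0.30 ± 0.11 (SE), a level 1.23-fold lower, with a 95% interval of -0.56 to -0.04 and an adjusted p of 0.222 (limma). In a bulk sample, fewer cells with a transcript and less of it per cell cannot be told apart. Fcgr3 is also expressed by neutrophils, and 5 of 8 neutrophil markers passed the test as lower with SAHA, as did 0.709% of all genes. Among the 5 were the granule protein gene Ngp (log2 change -1.88) and S100a9 (-1.51), while the collagenase gene Mmp8 had a change of 0.86 that did not pass. Not all of the 5 calls held when an array was left out, which leaves 1 array in a group. The log2 changes then lay between -1.96 and -1.81 for Ngp, -1.66 and -1.37 for S100a9 and -1.76 and -1.37 for Ltf. For Camp they lay between -1.32 and -0.95 and for S100a8 between -0.89 and -0.76. With a floor at the 20th percentile 0 of the 5 calls were left, where no gene of the array passed. The summed level of those 8 markers, in which Mmp8 weighs most, was 13.28 and 13.02 with SAHA and 13.06 and 12.60 in control on the log2 scale, and their part in the Fcgr3 value was not tested.

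Fcgr1 encodes FcγRI (CD64), the receptor of high affinity for IgG, which interferon is known to induce. Its values were 10.84 and 12.37 in SAHA-treated cells, against 11.41 and 12.72 in control cells. The groups overlapped, since replicate 1 was low and replicate 2 high in each. The log2 change was -0.46 ± 0.57 (SE) with a 95% interval of -1.83 to 0.92 and an adjusted p of 0.709 (limma), so a change of more than 1 in the lower direction lies within the error. Its second probe set gave 9.60 and 11.22 with SAHA and 9.97 and 11.54 in control, the same order of arrays. The distance between the replicates was 1.53 in SAHA-treated and 1.31 in control cells, which 0.132% and 0.500% of all genes reached between the same arrays. The complement gene C1qa of macrophages had a similar distance, with 10.88 and 12.22 under SAHA and 10.56 and 11.86 in control, and was named after its values were seen. The other measured genes of the macrophage marker list had smaller distances. Replicate 2 minus replicate 1 was -0.05 with SAHA and -0.15 in control for Csf1r, and -0.05 and -0.10 for Cd68. It was -0.10 and -0.08 for Cd14, 0.007 and 0.055 for Adgre1 and 0.36 and 0.017 for Mertk. Whether the make-up of the cultures took part in the replicate distance of Fcgr1 was not tested.

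Fcgr4 encodes FcγRIV, a receptor for IgG2 subclasses on mouse myeloid cells. Its values were 9.19 and 9.92 in SAHA-treated cells, against 9.14 and 10.13 in control cells. The groups overlapped and the replicates were again far apart, by 0.73 with SAHA and 0.99 in control. The log2 change was -0.09 ± 0.37 (SE), with a 95% interval of -0.97 to 0.80. For both Fcgr1 and Fcgr4 the sign of the change depended on single arrays, and without SAHA replicate 1 it was 0.31 for Fcgr1 and 0.28 for Fcgr4, while without control replicate 2 it was 0.20 and 0.41.

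Fcgr2b, the inhibitory receptor, was measured by 5 probe sets. The one with the highest mean (1435477_s_at) had values of 13.04 and 13.08 in SAHA-treated cells, against 12.86 and 12.97 in control cells. Both SAHA arrays lay above both control arrays, by a log2 change of 0.14 ± 0.10 (SE), a 95% interval of -0.11 to 0.39 and an adjusted p of 0.513 (limma). The other probe sets with signal did not share that order. Probe set 1435476_a_at gave 12.54 and 12.57 with SAHA and 12.45 and 12.60 in control, 1455332_x_at gave 12.54 and 12.52 with SAHA and 12.42 and 12.55 in control, and 1451941_a_at gave 12.77 and 12.73 with SAHA and 12.70 and 12.89 in control. In these 3 the groups overlapped and the log2 changes were 0.03, 0.04 and -0.04. The last probe set, 1447622_at, lay under the 25th percentile on every array. By the array's naming, the endings s_at and x_at mark probes that may also match related transcripts, and Fcgr2b and Fcgr3 are closely related genes.

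**Figure D2:**
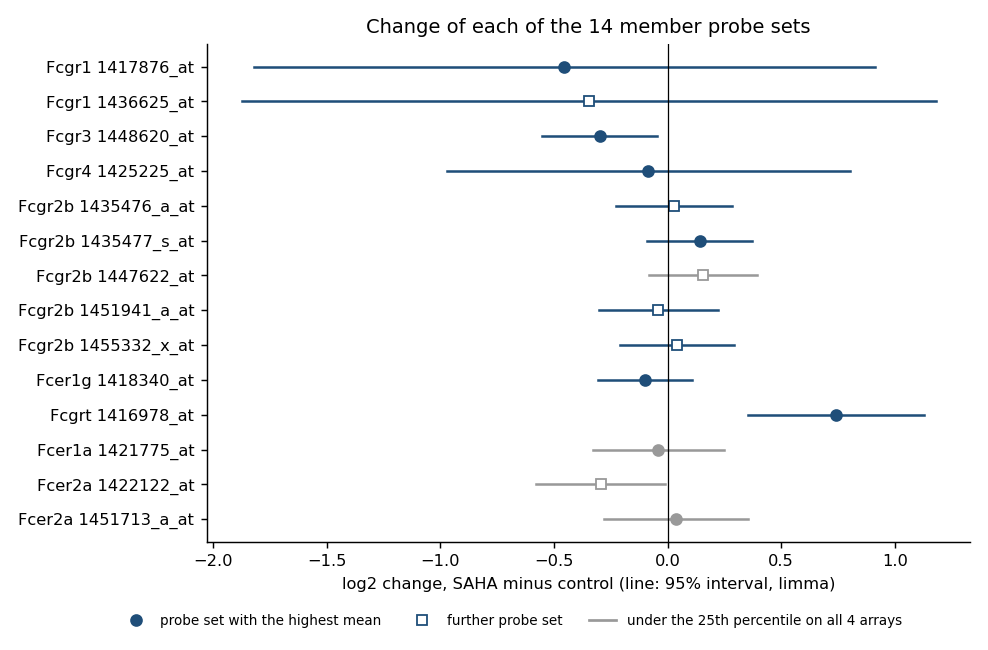
Log2 change of each of the 14 probe sets, SAHA minus control, with the 95% interval from limma over all 45101 probe sets. Filled circles are the probe sets used for the genes, open squares the further ones, and grey those under the 25th percentile on all 4 arrays. The interval of Fcgrt lies farthest from 0, and those of Fcgr1 and Fcgr4 are the widest among the genes.

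The activating and inhibitory genes were then set against each other within each array, which removes what moves both alike. The difference between Fcgr3 and Fcgr2b was -0.98 and -0.93 in SAHA-treated cells, against -0.46 and -0.57 in control cells. Both SAHA arrays were lower, a shift of -0.44 on the log2 scale. An exact two-sided permutation test gave p = 0.333, the smallest that 2 against 2 arrays allow, and 0.667 when adjusted over the 5 differences computed. The order held with each of the 3 other Fcgr2b probe sets with signal, with shifts of -0.34 to -0.26. The same Fcgr3 values enter each of these shifts. Those probe sets changed by 0.03, 0.04 and -0.04 on their own, so the shifts mostly repeat the Fcgr3 change of -0.30.

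The gamma chain was likewise set against Fcgr2b. The difference was 0.45 and 0.34 with SAHA, against 0.68 and 0.60 in control, a shift of -0.24 without overlap (exact permutation p = 0.333, adjusted 0.667). With the other Fcgr2b probe sets, and the same Fcer1g values, the shift was -0.14 to -0.06, and the groups overlapped with 1 of the 3. For Fcgr1 the shift was -0.60 and for Fcgr4 -0.23, each with overlapping groups (exact permutation p = 0.667). The mean of the 3 activating genes minus Fcgr2b was -2.34 and -1.60 in SAHA-treated cells, against -1.88 and -1.22 in control cells. Its shift of -0.42 was smaller than the SD between arrays of a group (0.52 with SAHA and 0.47 in control), and the groups overlapped (exact permutation p = 0.667). In both groups replicate 1 was the lower array. Differences within an array show unequal change and not which receptor is more abundant.

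**Figure D3:**
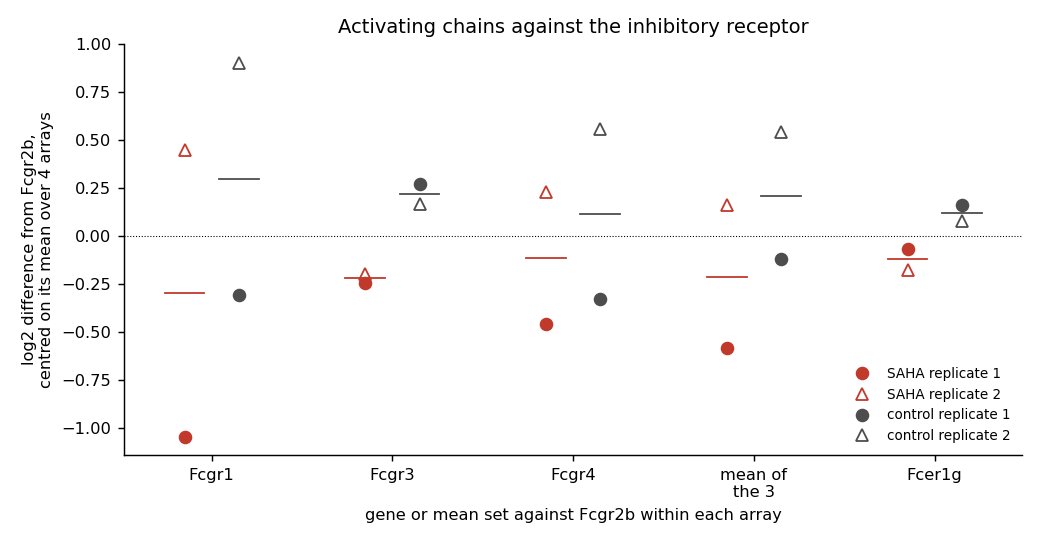
Log2 difference of each activating receptor gene, of their mean and of the gamma chain from Fcgr2b within each array, centred on its mean over the 4 arrays, SAHA in red left of control in grey and bars at the group means. Both SAHA arrays lie below both control arrays for Fcgr3 (shift -0.44) and Fcer1g (-0.24), and the groups overlap in the others.

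Fcer1g, the common gamma chain, had high and even signals. Its values were 13.49 and 13.42 in SAHA-treated cells, against 13.55 and 13.57 in control cells. Both SAHA arrays were lower, by 0.10 ± 0.10 (SE) on the log2 scale with a 95% interval of -0.33 to 0.13 and an adjusted p of 0.621 (limma). Tyrobp, which encodes the related ITAM adaptor DAP12, had 13.82 and 13.80 with SAHA and 13.94 and 13.89 in control. The profiles most like that of Fcer1g over the 4 arrays, by root mean square distance after centring and among genes above the median level, were those of Nle1 (0.0031), Rwdd4a (0.010) and Psmb4 (0.013). For Fcgr2b they were Polr1c (0.0086), Slc25a28 (0.0094) and Mon2 (0.0096). With 4 arrays many profiles come this close, so the likeness is a description only.

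Fcgrt, the gene of the neonatal Fc receptor, had the largest change of the 8. Its values were 8.65 and 8.81 in SAHA-treated cells, against 7.98 and 7.99 in control cells. Both SAHA arrays lay above both control arrays, and the distance between the groups exceeded that between replicates. The level was 1.67-fold higher, a log2 change of 0.74 ± 0.15 (SE) with a 95% interval of 0.39 to 1.10. Its adjusted p was 0.0638 (limma), just short of the threshold, at an unadjusted p of 0.00193, and 5.28% of all genes had a change at least as large in either direction. It passed, at an adjusted p of 0.0494, when the spread was estimated without an intensity trend. With quantile normalization the change was 0.68 and did not pass (adjusted p = 0.0907, limma). Nor did Fcgrt pass with median centring (0.0661), a robust spread (0.0548), genes above the median level (0.0569), means of probe sets (0.0619) or the floor (0.175). Leaving out single arrays gave changes of 0.66 to 0.82. FcRn pairs with beta-2 microglobulin, whose gene B2m had 14.52 and 14.53 with SAHA and 14.49 and 14.62 in control, without a difference beyond the replicates. B2m was named after its values were seen. Fcgrt was read by 1 probe set, so no second one was at hand.

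The IgE receptor genes were at the bottom of the scale. Fcer1a, the binding chain of the receptor of high affinity on mast cells and basophils, had 3.52 and 3.63 in SAHA-treated cells, against 3.48 and 3.75 in control cells. Fcer2a (CD23), the receptor of low affinity best known from B cells, had 3.79 and 3.88 with SAHA and 3.96 and 3.64 in control. Each of these 8 values was in the lowest 25% of its array. The groups overlapped, with log2 changes of -0.04 and 0.04. The second Fcer2a probe set was as low, at 3.54 and 3.56 with SAHA and 3.71 and 3.98 in control, without overlap of the groups. No change could be read from such signals. None of the 7 measured mast cell and basophil markers passed the test. Of these, 2 lay under the 25th percentile on every array, Ms4a2, the beta chain that accompanies Fcer1a, and the basophil protease gene Mcpt8. The others were higher, up to the transcription factor gene Gata2 at 7.15 and 6.87 with SAHA and 7.85 and 7.08 in control. Their summed level was 8.26 and 8.18 with SAHA and 8.68 and 8.38 in control on the log2 scale. None of the 7 measured B cell markers passed either, and none was under the 25th percentile on all 4 arrays. They ran from Ms4a1 (CD20), under it on 3 arrays, to the IgM heavy chain gene Ighm at 7.14 and 7.12 with SAHA and 7.35 and 7.34 in control. Their summed level was 8.14 and 8.19 with SAHA and 8.35 and 8.37 in control, and their part in the Fcer2a values was not tested.

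Fcgr2b, Fcgr4, Fcgr3 and Fcer1g follow each other in this order on chromosome 1 in RefSeq (GRCm38.p6), within a stretch of 42 annotated genes, many of them tRNA genes. Besides these 4, another 6 genes of the stretch were measured, and none passed the test. Their log2 changes lay between -0.16 for Nr1i3 and 0.05 for Cfap126, beside -0.30 for Fcgr3, which did not pass either. Several of these neighbours had low signals. The means of Nr1i3, Pcp4l1 and Apoa2 were 4.14, 4.68 and 5.22 with SAHA and 4.30, 4.80 and 5.33 in control. The array medians were 5.34 to 5.35, so the changes of these genes may not be comparable with that of Fcgr3.

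Around the receptors, 6 lists with 114 measured genes covered partner receptors, signalling and transcription. In total 3 of the 114 passed the test (2.63%, beside 2.23% of all genes), 1 higher and 2 lower with SAHA, and the median log2 change was -0.03. Each call was lost without SAHA replicate 1 and without SAHA replicate 2, where 0 of the 114 passed, and in those fits 0.17% and 0.495% of all genes passed. Without control replicate 1 the count was 5.

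**Figure D4:**
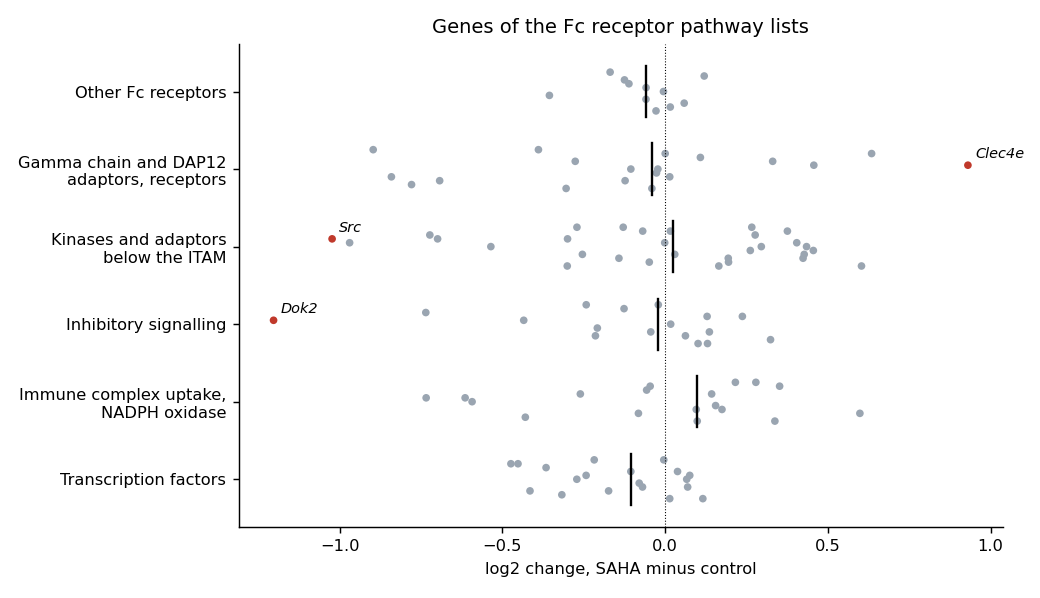
Log2 change, SAHA minus control, of every measured gene on the 6 lists, with a bar at each list's median. Genes past an adjusted p of 0.05 (limma) are red and named, and they are Clec4e on the higher side and Src and Dok2 on the lower side.

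Clec4e encodes Mincle, a lectin for glycolipids that signals through the same gamma chain. Its values were 13.62 and 13.68 in SAHA-treated cells, against 12.76 and 12.68 in control cells, far apart relative to the replicates. It rose 1.91-fold (log2 change 0.93 ± 0.10, SE, adjusted p = 0.0148, limma), and its second probe set gave a change of 1.59. Both passed in the fit over all probe sets (adjusted p = 0.0302 and 0.0269, limma). It was the 1 of 19 measured genes that passed on the list of gamma chain and DAP12 adaptors and myeloid receptors. Of all genes 2.23% passed in either direction and 1.52% as higher. None of the 19 passed as lower, and 12 had a lower mean with SAHA and 7 a higher one. Their median log2 change was -0.04, beside -0.05 for all genes. That list also held genes to which its heading does not apply. Examples are Clec4a2, a lectin with an ITIM, and Clec7a, which has a motif of its own. Among those that did not pass, Clec4a2 had a change of -0.84 (adjusted p = 0.0716), Sirpb1a of -0.90, the platelet collagen receptor gene Gp6 of -0.78, Trem3 of 0.63, Trem1 of 0.46 and Cd300ld of 0.33. Leaving out single arrays moved these values widely, to between -1.65 and -0.15 for Sirpb1a, -1.52 and -0.034 for Gp6, 0.35 and 0.92 for Trem3, -0.048 and 0.96 for Trem1 and 0.014 and 0.65 for Cd300ld, and Gp6 passed without control replicate 1 (adjusted p = 0.0224, limma). Trem2 came nearest to the threshold among the genes of this list that did not pass, at -0.69 (adjusted p = 0.0553, limma). Clec7a (-0.02) and Tyrobp (-0.11) showed small changes. Trem2, Clec7a and Tyrobp were named after their values were seen.

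Downstream of the ITAM, 1 of 30 measured genes passed, as lower with SAHA, where 2.23% of all genes passed in either direction. Of the 30, 16 had a higher mean with SAHA and 14 a lower one. Src, a tyrosine kinase, had 6.76 and 6.95 in SAHA-treated cells, against 7.83 and 7.92 in control cells. With SAHA it fell by 1.02 ± 0.16 (SE) on the log2 scale, or 2.03-fold (limma, adjusted p = 0.0378), with a second probe set at -1.04. In the fit over all probe sets neither passed (adjusted p = 0.0734 and 0.0692, limma), and the gene lost the call without control replicate 2 (adjusted p = 0.0624) as well as without SAHA replicate 1 or 2. The related myeloid kinase Fgr had a change of -0.97 (adjusted p = 0.0852). For the adaptors Lat2 and Pik3ap1 it was -0.72 and -0.70, and for Malt1, Sh2b2 and Gab3 0.60, 0.46 and 0.43. With means of probe sets the change was smaller for Lat2 (-0.30) and Sh2b2 (0.29) and larger for Pik3ap1 (-0.85) and Malt1 (1.18). Syk itself had 12.15 and 12.14 with SAHA and 11.84 and 11.61 in control, a change of 0.43 that did not pass (adjusted p = 0.153). Syk was named after its values were seen.

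On the inhibitory side, 1 of 17 measured genes passed, as lower with SAHA, where 2.23% of all genes passed in either direction. Of the 17, 8 had a higher mean with SAHA and 9 a lower one. Dok2, an adaptor that restrains signalling by RAS, had 10.02 and 10.08 in SAHA-treated cells, against 11.47 and 11.04 in control cells. With SAHA it fell by 1.20 ± 0.17 (SE) on the log2 scale, or 2.30-fold (limma, adjusted p = 0.0293). It was read by 1 probe set, which did not pass in the fit over all probe sets (adjusted p = 0.0543, limma). Lair1 and Sirpa, receptors with ITIMs, had changes of -0.74 and -0.43, Dok1 of -0.24, Inpp5k of 0.32, Cblb of 0.24 and Ptpn22 of 0.14. The phosphatase genes that act with FcγRIIB and related receptors were nearly level. Inpp5d had 10.41 and 10.44 with SAHA and 10.40 and 10.41 in control, and Ptpn6 had 11.20 and 11.06 with SAHA and 11.16 and 11.14 in control. Both were named after their values were seen.

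None of the 18 measured genes of immune complex uptake and the NADPH oxidase passed, and the list had a median log2 change of 0.10. Ncf1 and Ncf4, cytosolic subunits of the oxidase, had changes of -0.61 and 0.60. The complement receptor genes C5ar1 and Cr1l had -0.73 and -0.59, the clathrin heavy chain Cltc 0.35 and C1qa 0.34. With means of probe sets the change was smaller for Cr1l (-0.32) and larger for Ncf1 (-0.79). None of 19 measured transcription factors passed either, with a median of -0.11. Tfec (-0.47), Gata2 (-0.45) and Stat6 (-0.42) had the lowest values and Runx1 (0.12), Stat3 (0.08) and Sp3 (0.07) the highest. Spi1, the gene of PU.1, had 11.80 and 11.63 with SAHA and 12.09 and 11.78 in control, and was named after its values were seen. Of 11 measured genes on the list of other Fc receptors and Fc receptor-like genes none passed. That list also held genes to which its heading does not apply, such as B2m. The cytosolic antibody receptor gene Trim21 had a change of -0.36, Fcamr of -0.17, Pigr of -0.12, Fcrla of 0.12, Fcrl1 of 0.06 and Ms4a2 of 0.02.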

How the data were processed

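Total RNA was labelled with biotin from 6 µg and hybridised to Affymetrix arrays, per the labels' protocols. The deposited values, 1 per probe set and array, are on a log2 scale, which was read from the values themselves. The medians of the arrays differed by at most 0.0118, and the values were used as deposited. The submitters' processing notes name R 2.7. How probes were summarised and normalised was not given in the sources used. Arrays give no read depth.

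Of 45101 probe sets, 34958 had 1 gene symbol in the platform annotation (932 several, 9211 none), updated by Entrez identifier through RefSeq for 34754. This gave 18194 genes. SAHA was set against control in limma 3.58.1, run in R 4.3.3 (intensity trend, no covariate, no filter, two-sided), and an SE or interval is the moderated one. The fit was tested on simulated arrays with independent noise. These had no effect shared by same-numbered arrays, so the test does not bear on such an effect. The members, lists and tests were chosen with earlier results of these data known. Of 166 symbols on the lists 150 were measured, and the others were not analysed here. The text names all 8 members, every list gene past the threshold and, per pathway list, the 3 largest changes in each direction among the rest, and says where a gene was named after its values were seen. Of the marker lists, those bearing on a result are named. Alternatives were no trend, a floor at the 20th percentile, centring on medians, a robust spread, quantile normalization, genes above the median level, means of probe sets, replicate number as a block, and leaving out each array. Upstream sequences are from RefSeq (GRCm38.p6), which held all 8 genes, and for a gene with several starts the one listed first was taken.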

Additional observations from a re-analysis of the deposited data

How the results depend on the processing

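With 2 arrays per group the precision of every value is limited. No Fc receptor gene passed in the reported fit or in any alternative apart from 2. Without the intensity trend 1 passed (Fcgrt). With replicate number as a block (replicate block) 3 of the 8 passed, Fcgr1 (adjusted p = 0.00211), Fcgr3 (0.0125) and Fcgrt (0.00120, limma), as did 4 of the 14 probe sets, 40 of the 114 pathway genes and 19.9% of all genes (3616, against 405 without the block). The labels give the replicates a number but tie it to no shared culture. The deviations of same-numbered arrays from their group means correlated at r = 0.567 over 18194 genes, which with 2 numbers is a hint from the data and not a pairing in the design. Differences between same-numbered arrays in the activating minus inhibitory value were -0.46 and -0.38 for the mean, -0.74 and -0.46 for Fcgr1 and -0.13 and -0.32 for Fcgr4, and their average equals the shift without the block by construction.

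Of the 3 called pathway genes, 0 passed with values floored at the 20th percentile, where no gene of the array passed, and the cause was not tested. Leaving out single arrays gave 0 to 5 called pathway genes and 0 called members. Over all genes the count was 274 with means of probe sets, 226 of 9097 above the median level, 31 and 90 when SAHA replicate 1 or 2 was left out, and 529 and 347 when control replicate 1 or 2 was.

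With means of probe sets the Fcgr3 minus Fcgr2b shift was -0.36. With 3 other Fcgr2b probe sets, an alternative chosen after seeing the data, it was -0.33, -0.26 and -0.34. That of Fcer1g minus Fcgr2b was -0.13, -0.060 and -0.14. All were in the reported direction, but they reuse the same Fcgr3 and Fcer1g values and are not independent of the reported shifts. Leaving out single arrays gave shifts of -0.49 to -0.39 for Fcgr3, -0.30 to -0.19 for Fcer1g, -1.34 to 0.15 for Fcgr1, -0.67 to 0.22 for Fcgr4 and -0.79 to -0.05 for their mean.

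Of the 36 pathway genes that did not pass and were named by the rule for the largest changes, 29 had a change that moved by over 1.5 times when a single array was left out, and 3 passed in such a fit (Gp6, Fgr and Ncf4). The log2 change of several genes turned sign. Under quantile normalization Fcer1a was 0.0083 and Fcrl1 -0.026. With the floor Fcer2a was -0.035. With means of probe sets Fcer2a was -0.13, Pigr 0.0036, Fcrl1 -0.043, Cblb -0.15, Stat3 -0.023 and Runx1 -0.039. Leaving out single arrays gave -1.22 to 0.31 for Fcgr1, -0.58 to 0.41 for Fcgr4, -0.18 to 0.095 for Fcer1a and -0.12 to 0.19 for Fcer2a. It gave -0.047 to 0.079 for Ms4a2, -0.046 to 0.29 for Fcrla, -0.079 to 0.20 for Fcrl1, -0.048 to 0.96 for Trem1, -0.091 to 0.36 for Ptpn22, -0.020 to 0.50 for Cblb, -0.33 to 1.01 for C1qa, -0.13 to 0.27 for Sp3, -0.27 to 0.42 for Stat3 and -0.17 to 0.40 for Runx1.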
